A study of Homo sapiens with 2 samples.

Results

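The genes described here encode enzymes that write or remove methyl groups on lysine 9 of histone H3 (H3K9). They were chosen by name: the methyltransferases EHMT1, EHMT2, SUV39H2 and SETDB2, the KDM4 demethylases KDM4A, KDM4B, KDM4C and KDM4D, and the demethylases KDM3A and KDM1A. All 10 were found, each with 1 interval, among 35812 gene symbols. The values are H3K9me3 ChIP-seq reads and peaks (antibody Abcam ab8898) from KBM7, a line of near-haploid karyotype derived from chronic myeloid leukemia. These cells, for which the labels name no treatment, gave 1 H3K9me3 library and 1 IgG library; the IgG library was not analysed here, so no value below has a replicate or a control beside it. H3K9me3 does not measure expression, so the labelled cell type was not checked against marker genes.

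H3K9 trimethylation marks constitutive heterochromatin and silenced repeats. EHMT1 (GLP) and EHMT2 (G9a) form a heterodimer that adds mono- and dimethylation, mostly in euchromatin, whereas SUV39H2 adds trimethylation and SETDB2 belongs to the SET domain family of SETDB1. KDM4 enzymes use a JmjC domain to remove tri- and dimethylation. KDM3A, another JmjC enzyme, removes mono- and dimethylation, and KDM1A (LSD1), a flavin-dependent amine oxidase, acts mainly on H3K4 and in some settings on H3K9.

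Reads were deposited for 40237 gene intervals with a summed count of 78512210, in which reads of overlapping intervals are counted more than once; how many reads the library had in all is not stated in the labels or files used here. The gene score is the read count of an interval divided by its length in kb. Its median over all symbols was 43.5 reads per kb, and the 25th and 75th percentiles were 23.6 and 77.0. Members held 238 to 18283 reads. Their intervals lie on chromosomes 1, 2, 6, 9, 10, 11, 13 and 19, none of them on chromosome 8 or 15, and scores were not corrected for copy number, IgG or mappability. Intervals given with scores and ratios are exact 95% Poisson intervals or exact conditional intervals of a ratio of Poisson rates, and cover counting error only.

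KDM4D and EHMT1 had the highest H3K9me3 scores of these genes, and KDM4A and EHMT2 the lowest. KDM4D had 67.0 reads per kb (63.9 to 70.3), EHMT1 57.4 (56.5 to 58.4) and KDM4C 40.2 (39.6 to 40.8). They were followed by SETDB2 with 30.9 (29.4 to 32.4), KDM4B with 28.9 (28.1 to 29.7), KDM3A with 28.3 (26.9 to 29.8) and SUV39H2 with 22.2 (20.4 to 24.1). KDM1A had 20.8 (19.7 to 21.9), KDM4A 14.9 (13.9 to 16.0) and EHMT2 13.3 (11.6 to 15.1). In this order 3 pairs of neighbours did not differ beyond counting error: KDM4B over KDM3A was 1.02 (0.962 to 1.08), SUV39H2 over KDM1A 1.07 (0.968 to 1.18) and KDM4A over EHMT2 1.13 (0.973 to 1.31). The other 6 neighbouring ratios had intervals above 1, the smallest being SETDB2 over KDM4B at 1.07 (1.01 to 1.13).

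Above the median of all symbols lay 2 of the 10 members, KDM4D and EHMT1, against 50% of all symbols and 37.5% of protein-coding symbols, a count not far from the protein-coding background. Below the 25th percentile lay 4 members, SUV39H2, KDM1A, KDM4A and EHMT2, against 25% of all symbols, and no member lay above the 75th percentile. SUV39H2, the highest of these 4, exceeded 29.8% of protein-coding symbols, so the protein-coding share below that percentile is larger than 25%. The median member score was 28.6 reads per kb, against 34.3 for protein-coding symbols, and 3 members, KDM4C among them, lay above 34.3. KDM4D had a higher score than 81.4% of protein-coding symbols and EHMT1 a higher score than 75.2%, whereas EHMT2 exceeded 8.07% and KDM4A 12.7%. The enzymes of both classes, writers and erasers, were spread over this range.

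**Figure D1:**
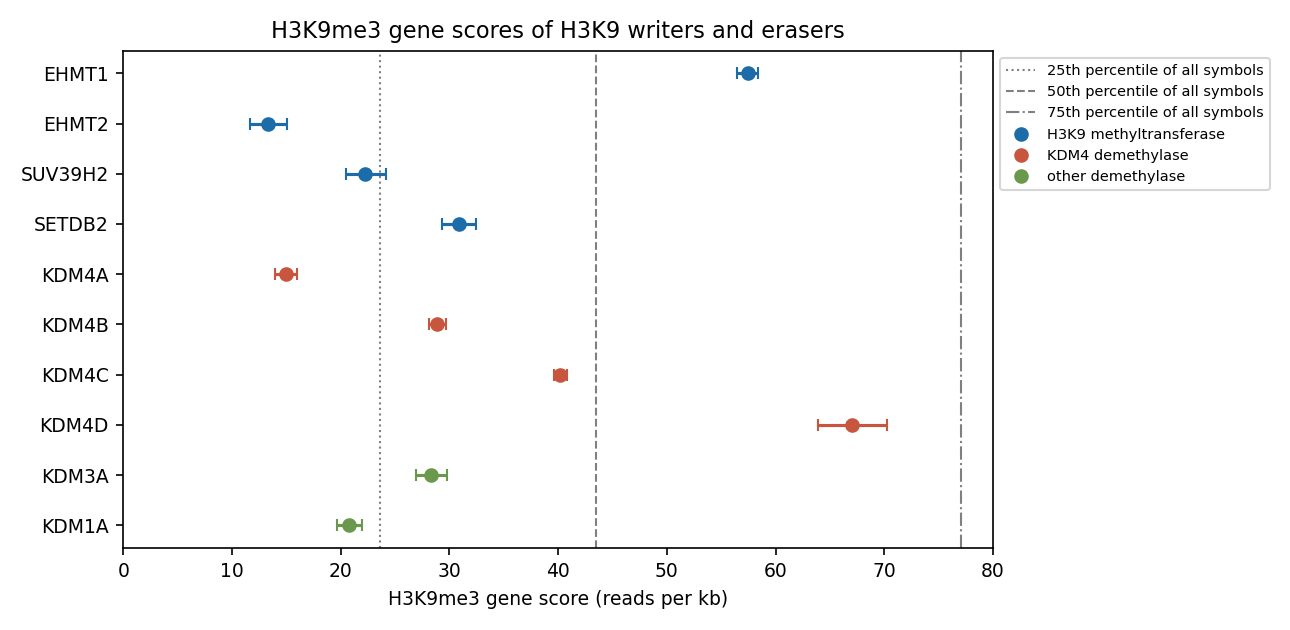
H3K9me3 gene score of each member in reads per kb (points, coloured by role) with its 95% Poisson interval (bars); vertical lines mark the 25th, 50th and 75th percentiles of all symbols. KDM4D at 67.0 and EHMT1 at 57.4 lie right of the median of 43.5, and the other 8 genes lie left of it.

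Peaks were found inside 5 of the 10 genes, most of them in the 3 longest. EHMT1 held 18 peaks, KDM4C 17, KDM4B 5, KDM4D 4 and SETDB2 1, 45 in all, and EHMT2, SUV39H2, KDM4A, KDM3A and KDM1A held none. A peak overlapped 36.8% of all symbols and 43.6% of protein-coding symbols, so the members' share is not far from that background. Long genes hold a peak more often: 98.6% of intervals over 300 kb did (KDM4C, 455 kb), 87.8% of those of 100 to 300 kb (EHMT1, 251 kb, and KDM4B, 184 kb), 57.3% of those of 30 to 100 kb and 32.7% of those of 10 to 30 kb. Among the 4 members of 30 to 100 kb only SETDB2 held a peak, and among the 3 of 10 to 30 kb only KDM4D did. The member peaks had a median width of 1050 bp (300 to 5850), against 900 bp for all 126965 peaks in the list, which gives positions but no height or significance.

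The start sites of all 10 genes were free of peaks. A start is here the 5′ end of the deposited interval, and another annotated start would give other distances. For KDM4C the interval starts at 6720863 (hg19), and the RefSeq promoter window is 6757723 to 6757972 (GRCh38.p14, not matched to hg19). A peak lay over the start of 8.58% of all symbols, so 0 of 10 is not far from that background. Within 5 kb of the start there was a peak at 3 members, KDM4C, KDM4D and KDM3A, against 29.0% of all symbols. For KDM3A the nearest peak ended 170 bp upstream of the start, for KDM4D it began 3.46 kb downstream and for KDM4C it ended 3.86 kb upstream. At the other end of the range the nearest peak was 45.8 kb from the start of EHMT2, 71.4 kb from that of EHMT1 and 129 kb from that of KDM4A.

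For sequence, 5 members were picked: the EHMT1 and EHMT2 pair, the KDM4 members with the highest and the lowest score, and KDM3A. KDM3A has a peak beside its interval start. RefSeq starts need not be the interval starts used above. The sequences before the RefSeq starts of these 5 members are shown. They are the 250 bases upstream of the RefSeq start, 5′ to 3′ on the strand of the gene, from a RefSeq promoter table on GRCh38.p14 (not the hg19 build of the peaks, to which these windows were not matched): EHMT1 chr9:137618755-137619004 (+), EHMT2 chr6:31897699-31897948 (-), KDM4D chr11:94973459-94973708 (+), KDM4A chr1:43649899-43650148 (+) and KDM3A chr2:86441121-86441370 (+). Capitals mark the dinucleotide CG, the target of DNA methylation, which reads the same on both strands.
EHMT1: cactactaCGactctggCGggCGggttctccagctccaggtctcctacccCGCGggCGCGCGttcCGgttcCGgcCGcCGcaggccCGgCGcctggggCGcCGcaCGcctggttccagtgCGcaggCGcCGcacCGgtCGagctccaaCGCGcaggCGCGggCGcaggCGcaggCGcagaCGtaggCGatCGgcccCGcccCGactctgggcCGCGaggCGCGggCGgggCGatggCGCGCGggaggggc
EHMT2: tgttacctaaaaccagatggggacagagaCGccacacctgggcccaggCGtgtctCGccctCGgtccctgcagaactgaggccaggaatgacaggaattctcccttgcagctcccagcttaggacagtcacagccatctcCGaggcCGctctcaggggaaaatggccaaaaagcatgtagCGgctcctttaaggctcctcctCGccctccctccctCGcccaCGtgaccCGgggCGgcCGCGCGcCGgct
KDM4D: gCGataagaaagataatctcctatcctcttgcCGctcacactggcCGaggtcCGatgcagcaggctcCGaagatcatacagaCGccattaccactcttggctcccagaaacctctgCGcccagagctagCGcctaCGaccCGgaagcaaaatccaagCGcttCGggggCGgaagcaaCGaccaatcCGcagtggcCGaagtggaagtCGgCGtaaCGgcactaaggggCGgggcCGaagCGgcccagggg
KDM4A: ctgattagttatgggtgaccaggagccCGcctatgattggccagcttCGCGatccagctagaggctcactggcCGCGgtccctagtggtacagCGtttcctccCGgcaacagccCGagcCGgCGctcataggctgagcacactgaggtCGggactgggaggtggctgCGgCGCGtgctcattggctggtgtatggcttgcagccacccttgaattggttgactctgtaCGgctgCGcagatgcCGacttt
KDM3A: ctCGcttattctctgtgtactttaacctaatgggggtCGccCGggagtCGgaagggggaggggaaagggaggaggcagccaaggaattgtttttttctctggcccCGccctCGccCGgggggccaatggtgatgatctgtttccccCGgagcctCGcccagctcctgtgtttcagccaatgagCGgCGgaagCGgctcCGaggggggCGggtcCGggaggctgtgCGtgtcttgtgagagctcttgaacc
All 10 members were matched to the table of 27305 promoters, and the most upstream window was used where a gene had more than 1. CG occurred in 93.6% of all promoters, with a median of 10 copies (25th to 75th percentile 3 to 23), and every member lay above that median. EHMT1 had 43 copies, more than 99.0% of promoters, and EHMT2 16, more than 59.4%. KDM4D had 22, KDM4A 17 and KDM3A 16. The letters CCAAT or, on the other strand, ATTGG occurred in 5 of the 10 members (KDM4B 4 times, KDM4A 3, SETDB2 and KDM3A 2 each, KDM4D 1) and in 33.0% of all promoters. These counts describe letters in a window and say nothing about bound factors. The nearest KDM3A peak ends 170 bp before the hg19 interval start. How the KDM3A window lies to that peak was not determined, because the builds were not matched.

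EHMT1 carried far more H3K9me3 reads per kb than its partner EHMT2. EHMT1 (chromosome 9, 140513444 to 140764468, hg19, plus strand) held 14413 reads over 251 kb, and EHMT2 (chromosome 6, 31847536 to 31865464, minus strand) held 238 reads over 17.9 kb. The ratio of scores, EHMT1 over EHMT2, was 4.33 (3.81 to 4.94). EHMT1 is 14.0 times as long, and the score is per kb. Peaks covered 12.5% of EHMT1, a larger share than in 85.7% of intervals of 100 to 300 kb, whose median cover was 3.06%. EHMT2 had no peak, as did most intervals of its length class. Divided by the median score of its own chromosome (32.4 reads per kb on chromosome 9, 41.4 on chromosome 6), EHMT1 stood at 1.77 and EHMT2 at 0.320, a ratio of 5.53. Divided by the reads per kb of the intervals within 500 kb, the ratio was 2.99.

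The peaks of EHMT1 left the beginning of the gene free. The first 81.6 kb, or 32.5% of the gene, held none. The first group consisted of peaks of 900 and 2550 bp at 81.6 and 82.8 kb from the start. Adjoining peaks of 2400 and 2700 bp followed at 94.8 and 97.2 kb, and at 111 kb (140624851 to 140630700) lay the widest peak of the gene, 5850 bp. Towards the middle the peaks were narrower and more isolated, with 1950 bp at 135 kb, 1500 bp at 151 kb, 750 and 1050 bp at 170 and 171 kb and 1500 bp at 200 kb. A group of 4 short peaks of 300 to 450 bp lay between 213 and 215 kb. The last stretch held peaks of 450 bp at 229 kb, 1050 bp at 235 kb, 2400 bp at 236 kb and 5100 bp at 246 kb. That last peak (140759101 to 140764200) ended 0.268 kb before the end of the gene and overlapped the antisense-strand interval AL772363.1, which shares the final 2092 bp of EHMT1 and scored 111 reads per kb (107 to 116). Which peaks lie in exons was not analysed here.

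The first 50% of EHMT1 lay in peaks for 11.5% of its sequence and the last 50% for 13.6%. Among the 796 intervals of 100 to 300 kb with 10 or more peaks, 3.64% had a first 30% free of peaks, a rule set after the EHMT1 positions were seen. The contrast continued outside the gene. In the 100 kb downstream 38.0% of the sequence lay in 21 peaks, against 1.8% in 1 peak in the 100 kb upstream. Downstream lies CACNA1B, a neuronal calcium channel subunit, with 99.3 reads per kb (98.1 to 101), 44 peaks and 38.8% of its length in peaks. Upstream lie C9orf37 with 12.3 (8.94 to 16.5), ARRDC1 with 11.4 (9.41 to 13.8) and ZMYND19 with 13.1 (10.7 to 15.8), all without a peak. The score of EHMT1 thus stood between those of its neighbours on either side. Intervals within 500 kb gave 84.6 reads per kb downstream and 37.9 upstream, and both sides together gave 57.2, close to EHMT1 itself (ratio 1.00, 0.985 to 1.02). That ratio depended on the window, with 0.812 within 200 kb and 1.26 within 1 Mb. The downstream value rests on 5 intervals, among them CACNA1B, 247 kb long, and FAM157B with 2.02 reads per kb.

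EHMT2, in the class III region of the MHC, was low against its surroundings, which gave 39.5 reads per kb within 500 kb. Its own antisense interval EHMT2-AS1 is nested in it and held 7 reads. The next genes, SLC44A4 downstream and ZBTB12 upstream, scored 23.8 (21.5 to 26.4) and 14.2 (9.87 to 19.9) without a peak. C2, a complement gene that begins 0.098 kb from the start of EHMT2, scored 35.4 (33.7 to 37.1), with the nearest peak to EHMT2 inside it (31911301 to 31912050). CFB, another complement gene upstream of EHMT2, scored 60.6 (57.6 to 63.8) with 20.3% of its length in peaks. EHMT2 lay at 0.336 (0.295 to 0.382) of the intervals within 500 kb.

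**Figure D2:**
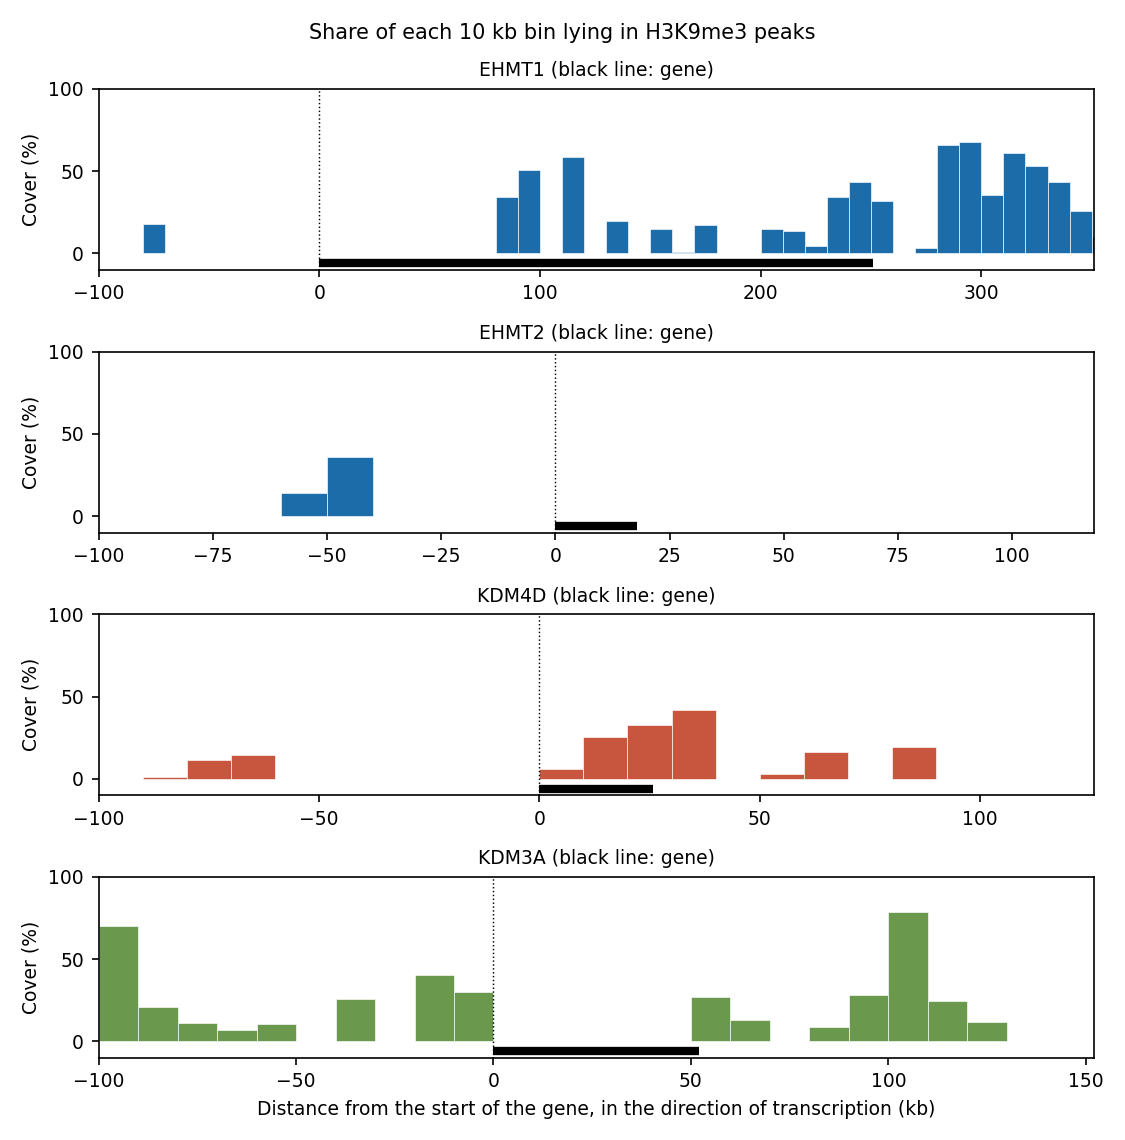
Share of each 10 kb bin that lies in H3K9me3 peaks (vertical axis, %) against distance from the start of the gene in the direction of transcription (kb), for EHMT1, EHMT2, KDM4D and KDM3A; the black line is the gene. Peaks begin 81.6 kb into EHMT1 and become dense beyond its end, EHMT2 is empty, KDM4D is filled towards its end, and KDM3A is empty between peaks on both sides.

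The other methyltransferases, SUV39H2 and SETDB2, were low in score. SUV39H2 (chromosome 10, 14920819 to 14946314) held 567 reads and no peak. Its last 27.3% is shared with the opposite-strand interval of the DNA repair gene DCLRE1C, which scored 35.7 (34.1 to 37.2) and holds the peak nearest to SUV39H2, 9.74 kb beyond its end. Upstream, HSPA14 scored lower than SUV39H2, with 13.8 (12.5 to 15.1), and CDNF higher, with 28.0 (25.7 to 30.5), both without a peak. SUV39H2 stood at 0.361 (0.332 to 0.392) of its surroundings within 500 kb, at 0.509 within 200 kb and at 0.364 within 1 Mb. SETDB2 (chromosome 13, 50018429 to 50069138) held 1565 reads and a single peak of 3150 bp, 16.8 kb from the start at 33.1% to 39.3% of the gene (50035201 to 50038350). That peak covered 6.21% of SETDB2, and no other peak lay within 100 kb of the gene on either side. The intervals beside it, CAB39L with 39.6 (38.6 to 40.7) and PHF11 with 25.6 (23.9 to 27.4), held no peak.

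The KDM4 genes differed among themselves by up to 4.49 times. All 6 pairwise ratios of scores had intervals above 1, so the order KDM4D, KDM4C, KDM4B, KDM4A was larger than counting error. KDM4D over KDM4A was 4.49 (4.13 to 4.88), KDM4D over KDM4B 2.32 (2.20 to 2.45) and KDM4D over KDM4C 1.67 (1.59 to 1.75). KDM4C over KDM4A was 2.69 (2.51 to 2.89), KDM4B over KDM4A 1.93 (1.80 to 2.08) and KDM4C over KDM4B 1.39 (1.35 to 1.44). Divided by their surroundings within 500 kb, KDM4C over KDM4B turned to 0.771, and KDM4D over KDM4B was 1.14. By peak cover the order was KDM4D with 19.2%, KDM4B with 5.20%, KDM4C with 3.76% and KDM4A with 0%, so KDM4B and KDM4C changed places there too. By peaks per 100 kb KDM4D had 15.5, KDM4C 3.74 and KDM4B 2.71.

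**Figure D3:**
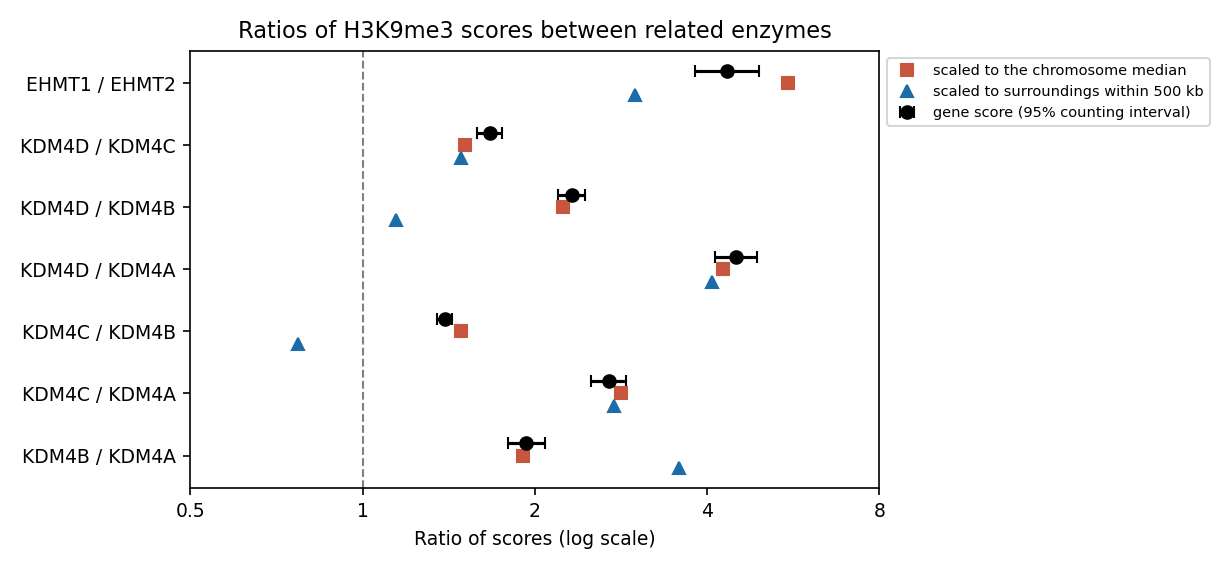
Ratios of H3K9me3 scores for EHMT1 over EHMT2 and the 6 KDM4 pairs on a log axis: gene scores with 95% counting intervals (circles), scores divided by the median of the own chromosome (squares) and by intervals within 500 kb (triangles). The ratio KDM4C over KDM4B falls below 1 (0.771) when scaled to the surroundings, and all other ratios stay above 1.

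KDM4D, the shortest KDM4 gene, had the densest peaks. It lacks the PHD and Tudor domains of KDM4A, KDM4B and KDM4C and is known for expression in testis. KDM4D (chromosome 11, 94706845 to 94732682, plus strand) held 1732 reads over 25.8 kb. A peak of 600 bp lay 3.46 kb from the start (94710301 to 94710900). Peaks of 900 bp (94721251 to 94722150) and 1650 bp (94723051 to 94724700) lay at 14.4 and 16.2 kb. A peak of 1800 bp at 23.9 kb (94730701 to 94732500) ended 0.182 kb before the end of the gene. The last 50% of KDM4D lay in peaks for 33.7% of its sequence and the first 50% for 4.64%. Its cover was larger than in 87.0% of intervals of 10 to 30 kb, whose median was 0%, and its score than in 80.4% of them.

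The gene beside the start of KDM4D had a low score. CWC15, a splicing factor gene that begins 0.069 kb upstream on the other strand, scored 10.5 (8.64 to 12.6) without a peak. Further upstream the interval RP11-856F16.2 scored 52.4 (50.5 to 54.5), and within 500 kb the intervals downstream gave 49.1 reads per kb and those upstream 45.2. Downstream, peaks went on for 8 more in 100 kb, with 9.6% of the sequence covered, against 2.7% in 2 peaks upstream. KDM4E, the nearest relative of KDM4D, listed under its older symbol KDM4DL, lies 25.7 kb downstream and scored 93.6 (81.6 to 107), although no peak overlapped its 2.34 kb. KDM4D stood at 1.45 (1.38 to 1.52) of the intervals within 500 kb, the highest such ratio of the 10 members. KDM4D and KDM4E are related in sequence, and the sources used here do not say how reads matching both were placed.

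KDM4C, the longest gene of the set, held 17 peaks with a median width of 600 bp. It spans chromosome 9 from 6720863 to 7175648 and held 18283 reads. The first part carried isolated short peaks, of 600 bp at 42.2 kb from the start, 450 bp at 78.2 kb, 600 bp at 85.4 kb, 1050 bp at 114 kb, 1350 bp at 142 kb and 450 bp at 199 kb. After a free stretch of 85.8 kb came a group of 7 peaks within 12.2 kb (7006051 to 7018200), 285 to 297 kb from the start, which made up 37.7% of the covered sequence. Its widest peak had 2550 bp, at 287 kb. The remaining 4 peaks were 1950 bp wide at 378 kb, 450 bp at 424 kb, 2550 bp at 427 kb and 1200 bp at 439 kb. The first 50% of KDM4C was covered to 1.98% and the last 50% to 5.54%. Its 17 peaks compare with a median of 13.5 in intervals over 300 kb, and its cover of 3.76% with a median of 3.06%. By score KDM4C lay below the median of these intervals (40.2 against 46.2 reads per kb) and exceeded 32.0% of them.

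Reads varied along KDM4C as well. The nested interval RP11-403H13.1, 76.2 kb long and with 1 peak, scored 32.4 (31.1 to 33.7), and the rest of KDM4C 41.8 (41.1 to 42.4). Intervals within 500 kb, all of them upstream, gave 41.1 reads per kb, and KDM4C stood at 0.978 (0.957 to 1.00) of them. The ratio was 0.746 within 200 kb and 0.947 within 1 Mb.

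KDM4B lay in a stretch of low score and KDM4A was low against its stretch. KDM4B (chromosome 19, 4969124 to 5153606) held 5326 reads and 5 separate peaks. They were 300 bp wide at 38.6 kb from the start, 1800 bp at 49.3 kb, 2400 bp at 91.9 kb, 4350 bp at 127 kb (5096401 to 5100750) and 750 bp at 146 kb. The widest of them made up 45.3% of the covered sequence. The cover of KDM4B was larger than in 65.7% of intervals of 100 to 300 kb, but its score than in only 15.9% of them. KDM4B stood at 1.27 (1.23 to 1.31) of its surroundings within 500 kb. These gave 22.8 reads per kb, the lowest of the 10, with UHRF1 upstream at 13.8 (12.8 to 14.8). The ratio depended on the window, with 1.05 within 200 kb and 1.06 within 1 Mb. KDM4A (chromosome 1, 44115829 to 44171186) held 827 reads and no peak, and stood at 0.356 (0.332 to 0.381) of its surroundings, which gave 42.0 reads per kb. The nearest peak lay 73.6 kb beyond its end, in ST3GAL3, which scored 38.1 (37.3 to 38.9). KDM4A was among the 4 members that lay below the 25th percentile.

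**Figure D4:**
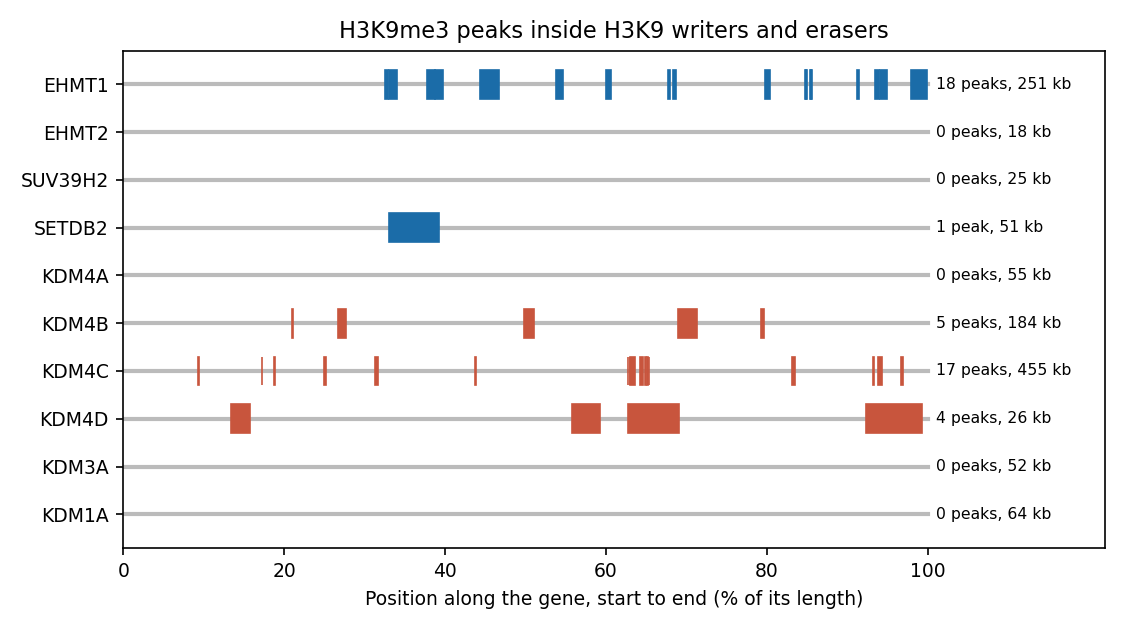
Peaks (boxes) inside each of the 10 genes, drawn along the gene from start to end as a percentage of its length, with the number of peaks and the gene length at the right. All starts are free, and boxes gather beyond 32.5% of EHMT1 and in the last 50% of KDM4C and KDM4D.

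Of the 5 members with a peak, 4 (EHMT1, KDM4B, KDM4C and KDM4D) had more cover in the last than in the first 50% of their length, and SETDB2 had it the other way round. Among all symbols with a peak this was so in 45.6%. The rule was set after the positions were seen.

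KDM3A and KDM1A, the demethylases outside the KDM4 family, held no peak. KDM3A (chromosome 2, 86667770 to 86719839) held 1475 reads and was free over its 52.1 kb, but peaks lay on both sides. The peak at 86666551 to 86667600 ended 170 bp before its start, and the next downstream began at 86725051. In the 100 kb upstream 21.5% of the sequence lay in 12 peaks, and in the 100 kb downstream 19.4% in 9. Among the 3066 symbols of 30 to 100 kb without a peak, 2.48% had peaks within 10 kb on both sides, a rule set after the KDM3A positions were seen; KDM4A and KDM1A, of the same length class, did not. KDM3A stood at 0.624 (0.592 to 0.657) of its surroundings. REEP1 upstream scored 89.5 (87.9 to 91.2) with 38.4% of its length in peaks, and CHMP3 downstream 58.1 (57.1 to 59.1). Beyond REEP1, genes without a peak scored lower than KDM3A: MRPL35 16.7 (14.6 to 18.9), IMMT 13.1 (12.1 to 14.1) and PTCD3 12.0 (10.9 to 13.2).

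KDM1A (chromosome 1, 23345941 to 23410182) held 1336 reads. The opposite-strand interval RP1-184J9.2 covers 98.9% of it and scored nearly the same, 20.7 (19.6 to 21.8), so the counts are not separate measurements. In the 100 kb upstream of KDM1A 22.2% of the sequence lay in 15 peaks, the nearest 12.4 kb from the start, and in the 100 kb downstream there was none. LUZP1 downstream scored 16.3 (15.5 to 17.2) without a peak. KDM1A stood at 0.544 (0.515 to 0.575) of its surroundings.

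**Figure D5:**
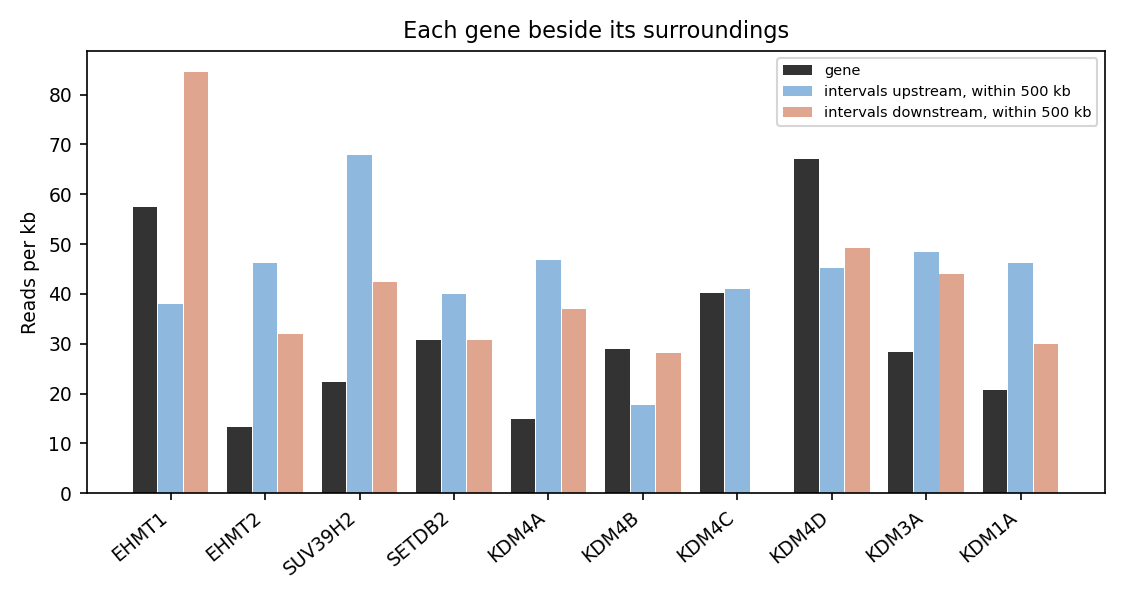
Reads per kb of each gene (dark bars) beside the pooled reads per kb of the intervals within 500 kb upstream (blue) and downstream (red) that do not overlap it; KDM4C has no interval downstream in that range. EHMT1 lies between its sides, KDM4D lies above both, and EHMT2, SUV39H2, KDM4A, KDM3A and KDM1A lie below both. KDM4B (28.9, 28.1 to 29.7) lies above its upstream side (17.7) and within its counting interval of its downstream side (28.2).

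Set against their surroundings within 500 kb, 7 of the 10 members were lower and 3 were higher: KDM4D, KDM4B and EHMT1. Within counting error of their surroundings in that window were EHMT1 (1.00, 0.985 to 1.02) and, among the 7, KDM4C (0.978, 0.957 to 1.00). Within 200 kb the ratio was 0.812 for EHMT1 and 0.746 for KDM4C. The share of all symbols below their surroundings was not computed, so the count of 7 has no background beside it. Surrounding intervals overlap each other in part and share reads. The range ran from 0.336 for EHMT2 to 1.45 for KDM4D. The 5 members without a peak were the 5 with the lowest ratios, from 0.336 to 0.624.

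Among 27 other genes of H3K9 methylation, listed with earlier results of these data known, the median score was 25.2 reads per kb, against 28.6 for the members. Above the median of all symbols lay 7, and 1, KDM4E, lay above the 75th percentile. Below the 25th percentile lay 11. A peak was present in 13 of them (48.1%), against 36.8% of all symbols and 43.6% of protein-coding symbols, not far from that background. Their median length was 84.4 kb, and 57.3% of intervals of 30 to 100 kb held a peak. A peak lay over a start site in 0, against 8.58% of all symbols. After KDM4E the highest were PRDM16, a zinc finger protein of the PRDM family, with 66.7 (65.9 to 67.6), 37 peaks and 15.8% cover, and CDYL2, a chromodomain protein, with 61.6 (60.6 to 62.7) and 16 peaks. The next highest cover was found in CDYL, another chromodomain protein, with 9.44%, and in ATF7IP, the partner of SETDB1, with 9.02%. SUV39H1, the X-linked paralog of SUV39H2, scored 21.1 (18.7 to 23.7), near SUV39H2 at 22.2. CBX1, an HP1 protein that reads H3K9 methylation, was lowest at 13.6 (12.4 to 15.0).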

How the data were processed

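Formaldehyde-crosslinked, sheared chromatin of KBM7 was immunoprecipitated and sequenced, per the labels' protocols. The submitters' processing notes name Bowtie2, MACS and hg19, with neither role nor version; read filters and whether IgG entered peak calling were not stated there. The authors deposited read counts per gene interval, not normalised, with the interval length in kb as another deposited value, and a score that is a coverage signal: reads divided by kb, checked with a largest difference of 3.03e-06. The authors' peak list, per the file headers, holds only coordinates, which lie on a 150 bp grid.

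For 280 symbols with more than 1 interval the highest score was used. Overlap meant 1 bp or more. Surroundings pooled intervals within 500 kb that do not overlap the gene. Gene types (18695 protein-coding symbols) came from RefSeq on GRCh38.p14, and no coordinate was converted. With 1 library no p-value was computed. Alternatives changed the scaling, the background, the peak width minimum (600 bp), the overlap, the gene bounds (5 kb) and the window. The interval and overlap functions were tested on simulated data. The members, gene lists and tests were chosen with earlier results of these data known. All members are named, and of the other H3K9 genes the 3 highest and the lowest score and the 3 highest covers. Of the overlapping and adjacent genes only a part is named. SUV39H1, and the neighbours beyond those overlapping a member, were named after their values were seen. Software was Python 3.11.15 with scipy 1.17.1, pandas 2.3.3, numpy 2.4.6 and matplotlib 3.10.9.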

Additional observations from a re-analysis of the deposited data

How the results depend on the processing

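With scores divided by the chromosome median, EHMT1 over EHMT2 was 5.53, KDM4D over KDM4C 1.51 and KDM4C over KDM4B 1.48. With scores divided by the surroundings within 500 kb these were 2.99, 1.48 and 0.771, the last reversed, and KDM4D over KDM4B was 1.14, KDM4D over KDM4A 4.08 and KDM4B over KDM4A 3.57; the cause was not tested. Single genes changed side of their reference level in 3 cases: KDM4C stood at 1.24 of its chromosome median (0.925 of the median of all symbols), KDM4B at 1.27 of its surroundings (0.664), and EHMT1 at 0.812 of its surroundings within 200 kb (1.00 within 500 kb). The number of members with a peak (5), the summed number of peaks (45) and the numbers of members above the median score and below their surroundings stayed within 1.5 times under the alternatives run for each. Peaks in KDM4C fell to 11 with peaks of 600 bp or more, and with the gene extended by 5 kb KDM4D had 7 and KDM3A 2. Of the other values for single genes and background shares, 32 were marked as moved on the same side and 48 were not. For scores and shares the limit was the counting interval. Peak counts did not follow that limit: the fall from 17 to 11 in KDM4C was marked, and that from 18 to 13 in EHMT1 was not. No paired analysis was possible because there is 1 H3K9me3 library, and for the same reason none could be left out. Read counts of 238 (EHMT2) give an interval of 11.6 to 15.1 reads per kb, so differences between EHMT2 and KDM4A were not detectable at this depth.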

Other observations

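Enzymes that write or remove methyl groups on other histone lysines were listed as a comparison, and 17 of 18 were matched. Their median score was 19.7 reads per kb, against 28.6 for the H3K9 members and 25.2 for the other H3K9 genes. Of the 17, 0 exceeded the all-symbol median and 12 fell short of the 25th percentile. A peak overlapped 36.8% of all symbols and 57.3% of intervals of 30 to 100 kb. Among the 17 a peak was present in 3 (17.6%), although their median length was 82.1 kb, against 53.7 kb for the H3K9 members. The 3 were KDM5A, an H3K4 demethylase, with 40.5 (39.3 to 41.7) and 3 peaks, KMT2C, an H3K4 methyltransferase, with 33.8 (33.2 to 34.5) and 4, and KDM6A, an X-linked H3K27 demethylase, with 30.5 (29.9 to 31.3) and 5. The lowest was SETD1A, an H3K4 methyltransferase, at 11.3 (10.1 to 12.6). The lists differ in length and chromosome, and the difference between them was not tested.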
